A study of Mus musculus with 18 samples.

Results

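The Zfp genes of the mouse are named for zinc finger proteins, and the exon peaks of these genes were taken from 4 deposited tables of differential m6A peaks in the uterus. A peak was a member when its annotation class was an exon and the transcript named there belonged to a gene whose symbol is Zfp followed by digits only. This gave 568 of the 16241 exon peaks that name a gene, in 239 of 8146 genes. The tables hold 41084 peaks of all classes. In the annotation the promoter and UTR classes are taken before the exon class, so an exon peak here lies outside those classes. All mice were wild-type females of the ICR stock, 8 weeks old, and uteri were taken on day 5 of pregnancy. The 3 treatments, each with 3 replicates, were Veh (vehicle), LPS (0.5 mg/kg) and Mel+LPS (the same LPS dose with 10 mg/kg of melatonin), all intraperitoneal. Melatonin or vehicle was injected daily on days 1 to 4, and LPS on days 3 and 4. Each replicate gave 1 input library and 1 library immunoprecipitated with the m6A antibody, which makes 18 libraries. Melatonin alone was not analysed here.

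Each comparison (LPS vs Veh and Mel+LPS vs LPS) has a table of up peaks and a table of down peaks. Each peak has 1 score, the log10 likelihood ratio of a difference between the treatments against none, and no value per replicate. The sources used here do not say how the 3 replicates were joined for a comparison. The values below therefore have no replicate error and no test, the read depth behind them is unknown, and shares are given with Wilson 95% intervals, which cover counting error only and treat peaks as independent although several can lie in 1 gene. The LPS-down table breaks off on chromosome 10, so directions in LPS vs Veh were compared on chromosomes 1 to 9. The LPS libraries enter both comparisons. The tables hold no expression level, so the labelled tissue could not be checked against markers. In whole uterus, more cells that express a gene and more m6A per transcript cannot be told apart.

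N6-methyladenosine (m6A) is placed on mRNA by the METTL3 and METTL14 methyltransferase within the motif DRACH, in which the letter D stands for A, G or T, the letter R for A or G, and the letter H for any base but G. It is known to be frequent in long internal exons and near the stop codon. The largest class of Zfp proteins carries tandem C2H2 zinc fingers, each a short stretch in which a pair of cysteines and a pair of histidines hold a zinc ion and which can bind DNA. Neighbouring fingers are joined by a short conserved linker. Many of these proteins start with a KRAB domain, which recruits TRIM28 and so silences chromatin, including retroelements and imprinted loci. Their genes are clustered on a few chromosomes and usually encode the whole run of fingers in 1 long last exon.

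The sequences of 6 exon peaks show what the differential peaks of these genes look like. They are the peak with the highest score up in LPS vs Veh, the pair with the highest scores among the LPS-down peaks, the highest peak of each direction in Mel+LPS vs LPS, and the peak of Zfp229, which lies at a site listed in both comparisons. All are coding sequence of GRCm38 read on the strand of the transcript, and capitals mark each DRACH motif, overlapping motifs in 1 run. Zfp658 lies at chr7:43573396-43573568 (+), Zfp568 at chr7:30022584-30022728 (+), Zfp617 at chr8:71932402-71932580 (+), Zfp266 at chr9:20499288-20499393 (-), Zfp992 at chr4:146466061-146466305 (+) and Zfp229 at chr17:21746367-21746492 (+).
Zfp658: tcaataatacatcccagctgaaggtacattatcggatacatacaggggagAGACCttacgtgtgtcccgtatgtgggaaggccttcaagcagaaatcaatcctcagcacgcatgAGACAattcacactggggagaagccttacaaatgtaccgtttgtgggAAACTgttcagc
Zfp568: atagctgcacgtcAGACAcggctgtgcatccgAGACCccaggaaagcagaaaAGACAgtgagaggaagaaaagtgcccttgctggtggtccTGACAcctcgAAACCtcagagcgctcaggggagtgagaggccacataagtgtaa
Zfp617: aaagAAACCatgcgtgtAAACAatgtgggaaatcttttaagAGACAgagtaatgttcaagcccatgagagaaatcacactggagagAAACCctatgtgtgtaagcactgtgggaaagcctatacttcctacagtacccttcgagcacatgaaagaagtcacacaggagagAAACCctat
Zfp266: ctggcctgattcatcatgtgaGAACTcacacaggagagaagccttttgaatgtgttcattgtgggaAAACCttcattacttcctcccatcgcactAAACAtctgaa
Zfp992: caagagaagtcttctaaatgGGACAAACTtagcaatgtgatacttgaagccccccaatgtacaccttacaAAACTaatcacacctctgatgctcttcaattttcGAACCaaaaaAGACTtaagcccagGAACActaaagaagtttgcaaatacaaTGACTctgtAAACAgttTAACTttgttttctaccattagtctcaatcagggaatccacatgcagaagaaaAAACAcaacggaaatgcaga
Zfp229: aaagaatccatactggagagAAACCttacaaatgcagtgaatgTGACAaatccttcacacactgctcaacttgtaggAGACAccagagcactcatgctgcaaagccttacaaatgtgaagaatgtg
The peak of Zfp658 was up in LPS vs Veh with a score of 16.0 and lay in exon 6 of 6, 1482 bases before the stop codon. It touched 3 fingers and held 3 DRACH motifs. The peak of Zfp617 held 5 DRACH motifs, and 3 of them were AAACC, letters that many linkers hold in their coding sequence. The peak of Zfp992 lay before the fingers and held 10 DRACH motifs in 245 bases. The sequences of the Zfp617 and Zfp992 peaks have near-identical copies in other genes, 1 for Zfp617 and 3 for Zfp992, so their reads could have been split between genes.

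The Zfp genes were reached by exon peaks more often than protein-coding genes as a whole. Of 367 protein-coding Zfp genes of RefSeq, 152 (41.4%, interval 36.5% to 46.5%) had an exon peak up in LPS vs Veh, against 11.9% of all 21883 protein-coding genes. On chromosomes 1 to 9, 51 of 227 (22.5%, 17.5% to 28.3%) had a peak down in LPS vs Veh, against 12.3% of all genes there, and 96 of 227 (42.3%) had a peak up. In Mel+LPS vs LPS, 130 of 367 (35.4%, 30.7% to 40.4%) had a peak up, against 18.2%, and 80 (21.8%, 17.9% to 26.3%) had a peak down, against 6.73%. In any table, 238 of 367 (64.9%) had one, against 28.8%. The remaining member, Zfp783, has no protein-coding entry.

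Counted as peaks, the Zfp genes held 210 of 4351 exon peaks up in LPS vs Veh, or 4.83% (4.23% to 5.50%). They held 65 of 2409 exon peaks down in LPS vs Veh (2.70%), 204 of 7032 up in Mel+LPS vs LPS (2.90%) and 89 of 2449 down in Mel+LPS vs LPS (3.63%). On chromosomes 1 to 9 the shares in LPS vs Veh were 5.99% (up) and 2.77% (down).

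The exon peaks of Zfp genes lay mostly in the last exon. Of all 568, 402 were in the last exon of the transcript named, 58 in the exon before it and 108 in earlier exons. The 3 peaks in exon 1 were in transcripts of 2 exons and are among the 58. The last exon held 74.8% (68.5% to 80.2%) of the 210 peaks up in LPS vs Veh, where it held 31.3% of the exon peaks of other genes. The values were 67.7% and 24.7% for the peaks down in LPS vs Veh, 63.7% and 19.6% for those up in Mel+LPS vs LPS, and 79.8% and 39.0% for those down in Mel+LPS vs LPS. The gene models have the same shape. In the 235 members with a GENCODE model, 64.4% of all coding bases were in the last exon, and the median gene had 85.8% of its own there. In 21476 other protein-coding genes these values were 22.7% and 15.3%.

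The number of exons separated the members. In transcripts of 4 exons, 139 of 153 peaks were in the last exon, and in transcripts of 5 exons, 98 of 118. None of the 16 peaks in a transcript of 28 exons was in the last exon, and all of these were in Zfp638.

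**Figure D1:**
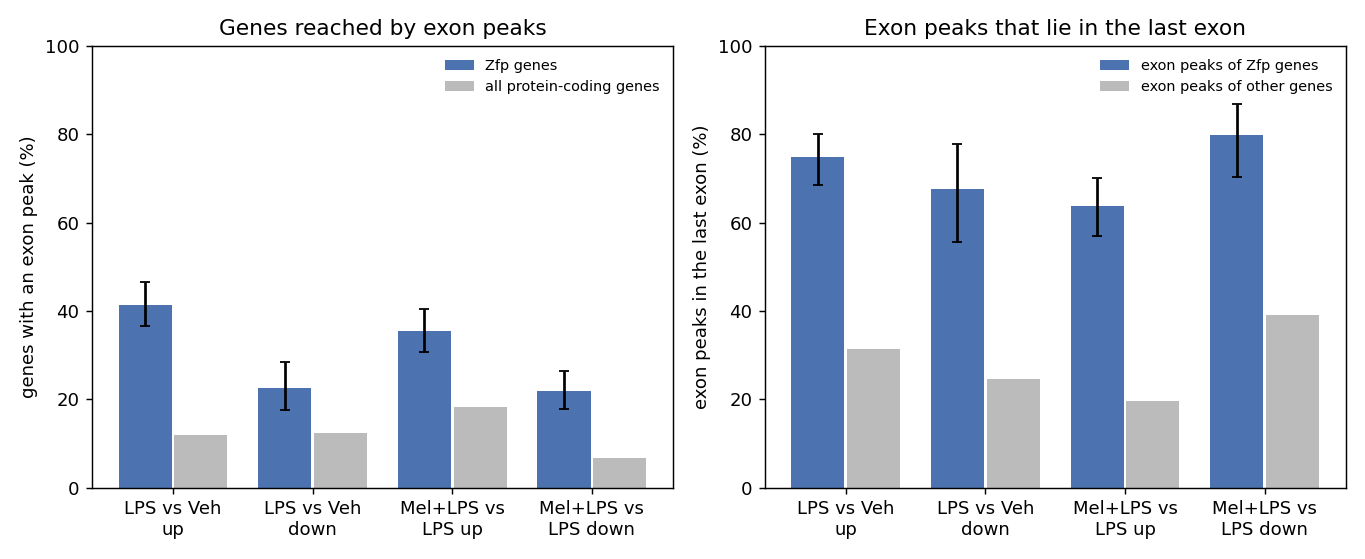
Left, percent of protein-coding genes with an exon peak in each table, for Zfp genes and all genes (chromosomes 1 to 9 for LPS vs Veh down). Right, percent of exon peaks in the last exon, for Zfp genes and other genes, where the only exon of a transcript counts as its last. Error bars are Wilson 95% intervals of the Zfp values. The Zfp bars stand above the grey bars in all 4 tables, from 21.8% to 41.4% on the left and from 63.7% to 79.8% on the right.

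Within the last exon, the peaks were spread along the coding sequence. The last exon here is that of the gene model and not of the transcript named, and only centres on coding sequence were used. The median centre lay at 0.49 of the coding part of the exon, counted from its 5′ end as 0 to the stop codon as 1, with quartiles of 0.25 and 0.71 (401 peaks). The median distance to the stop codon was 766 bases, and 8.48% of the centres were within 200 bases of it. For the last-exon peaks of other genes the median centre was at 0.52, with quartiles of 0.33 and 0.71, the median distance was 518 bases and the share 18.3%. The coding part of these last exons had a median of 1562 bases for the peaks of Zfp genes and 1230 for those of other genes. Peaks classed as 3′UTR are not among either.

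Fingers and linkers held about the share of peak centres that they hold of the coding bases. Of 568 centres, 496 lay on the coding sequence of the gene model, 54 lay off its exons, 2 in its 3′UTR, and 16 were in the 4 genes without a model (Zfp469, Zfp660, Zfp783 and Zfp939). On coding sequence, 210 centres were in a finger, 49 in a linker and 237 elsewhere, so fingers and linkers held 52.2% (47.8% to 56.6%). In the exons of these peaks, they made up a mean of 54.7% of the coding bases, with each exon counted once per peak. Of 481 centres in genes with at least 2 fingers, 119 lay before the first finger, 338 between the first and the last finger, and 24 after the last. By table, fingers and linkers held 53.3% of the centres up in LPS vs Veh, 46.4% of those down, 48.9% of those up in Mel+LPS vs LPS and 61.5% of those down. The same mean over the exons of the peaks was 56.1%, 52.7%, 50.2% and 62.9%.

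The proteins held a median of 11 fingers, from 0 to 33, and 230 of 235 had at least 1. Genes with more exon peaks had longer coding sequences. The median was 1665 bases in the 90 genes with a model and 1 peak, and 2256 bases in the 43 genes with 4 or more, while the median number of fingers was 11 and 12. Across the 235 genes, which are not independent replicates, the number of peaks had a Pearson's r of 0.49 and a Spearman's rho of 0.35 with coding length, and 0.10 and 0.16 with the number of fingers.

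In LPS vs Veh, the exon peaks of Zfp genes were mostly up. On chromosomes 1 to 9, 132 were up and 65 down, so 67.0% were up (60.2% to 73.2%), where 48.4% of all exon peaks listed there were up. In the last exon, 100 of 144 peaks of Zfp genes were up (69.4%, 61.5% to 76.4%), against 54.5% of all last-exon peaks. In other exons, 32 of 53 were up (60.4%, 46.9% to 72.4%), against 45.9%. The same direction was seen in the peaks classed as 3′UTR that lie on exons of Zfp genes, where 53 of 75 (70.7%) were up, against 48.8% of all 3′UTR peaks.

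In Mel+LPS vs LPS, 204 were up and 89 down, or 69.6% up (64.1% to 74.6%), where 74.2% of all exon peaks were up. In the last exon, 130 of 201 were up (64.7%, 57.9% to 71.0%), against 59.7% of all, and in other exons 74 of 92 (80.4%, 71.2% to 87.3%), against 79.2%. The intervals of both exon classes hold the value of all genes, and in both sets of genes the share was lower in the last exon. On chromosomes 1 to 9, 70.2% were up, against 75.1%, with 63.4% of last-exon peaks, against 60.1%, and 86.0% of the rest, against 80.3%. In the 3′UTR class, 62 of 144 peaks on exons of Zfp genes (43.1%) were up, against 55.5% of all 3′UTR peaks.

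Other genes whose proteins hold at least 3 fingers, and which carry other names, were counted in the same way. They had 106 exon peaks in LPS vs Veh on chromosomes 1 to 9, of which 69.8% (60.5% to 77.7%) were up. In Mel+LPS vs LPS they had 206 exon peaks, of which 73.3% (66.9% to 78.9%) were up. The last exon held 64.2% and 55.8% of these peaks.

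**Figure D2:**
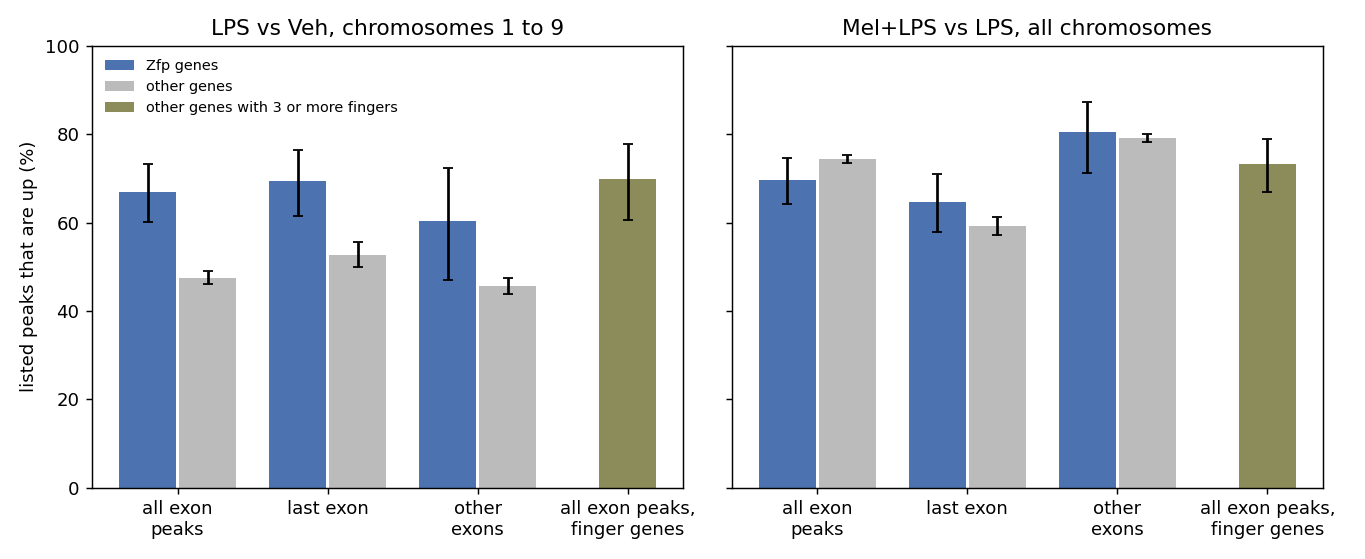
Percent of listed exon peaks that are up, with Wilson 95% intervals, for Zfp genes, all other genes and, in the bar at the right of each panel, other genes with 3 or more zinc fingers. In LPS vs Veh (chromosomes 1 to 9), the Zfp value is 67.0% and that of other genes 47.6%, and in Mel+LPS vs LPS (all chromosomes) they are 69.6% and 74.3%.

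A strict KRAB pattern was found in 88 of the 235 proteins, and a looser one in 103. The looser one also allows Y for the first F and M for V. The values below use the strict pattern, so the other genes include some that match only the looser one. In LPS vs Veh, 65.8% (54.8% to 75.3%) of 79 peaks of these genes and 67.3% (58.1% to 75.3%) of 110 peaks of the others were up. In Mel+LPS vs LPS, 59.2% (49.6% to 68.2%) of 103 peaks of genes with the pattern were up, and 75.8% (69.1% to 81.5%) of 182 peaks of the others. The last exon held 90.3% of the former and 55.5% of the latter, so the exon class moves with the KRAB pattern, and its part in the difference was not tested.

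The scores were low for most members. The median scores were 2.13 (LPS vs Veh up), 1.95 (LPS vs Veh down), 2.10 (Mel+LPS vs LPS up) and 1.91 (Mel+LPS vs LPS down), where the exon peaks of other genes had 2.27, 2.20, 2.11 and 2.28. Between 30.0% and 35.4% of the members in a table had a score of at least 3. Of the exon peaks of other genes, 38.7%, 36.4%, 29.7% and 40.2% had one, in the same order of tables, so low scores were common there too. The lowest score in any table was 1.01.

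In LPS vs Veh, the highest scores of up peaks were those of Zfp658 (16.0), Zfp27 (12.6, exon 3 of 3), Zfp369 (11.0, exon 7 of 7) and Zfp677 (10.95, exon 4 of 5). Zfp27 had no other exon peak. Among the down peaks, Zfp568 had 8.76 in exon 10 of 10, Zfp617 had 8.64 in exon 4 of 4, Zfp469 had 7.84 in exon 5 of 5 and Zfp949 had 7.51 in exon 6 of 6. Zfp568 encodes a KRAB repressor known to silence a placental transcript of Igf2.

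In Mel+LPS vs LPS, the highest up peak was that of Zfp266 (17.2, exon 9 of 9), its only exon peak. Zfp827 followed with 12.8 in exon 6 of 15, Zfp950 with 12.8 in exon 1 of 2 and Zfp365 with 11.9 in exon 2 of 5. Zfp365 is 1 of the 5 members in which the finger pattern was not found. Thus 3 of these 4 peaks were outside the last exon of the transcript named, although for Zfp950 the gene model puts the peak in its last exon. The highest down peaks were those of Zfp992 (14.6), Zfp433 (10.4), Zfp772 (8.89) and Zfp51 (7.61), all in the last exon. The Zfp433 peak has a near-identical copy in 1 other gene.

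**Figure D3:**
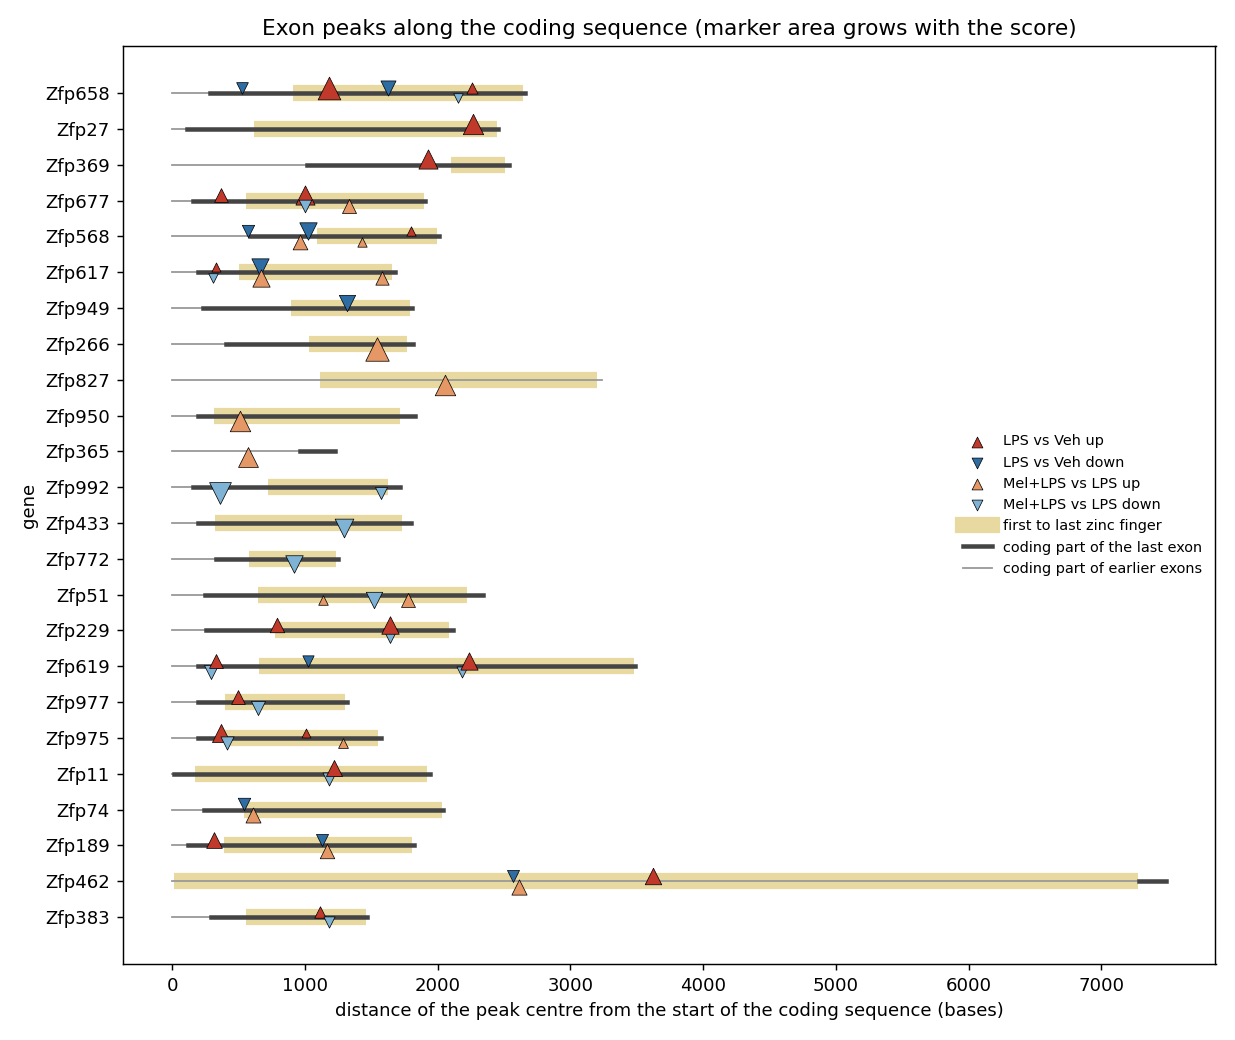
Position of exon peaks along the coding sequence of 24 named Zfp genes, in bases from the coding start. Triangles pointing up and down are peaks up and down, raised above the line for LPS vs Veh and lowered below it for Mel+LPS vs LPS, with an area that grows with the score. The thick line is the coding part of the last exon, and the pale band runs from the first to the last finger, as in Zfp619 from 657 to 3480. The large triangles of Zfp658, Zfp27 and Zfp266 lie inside the band, and those of Zfp369 and Zfp992 before it.

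Most Zfp genes had few peaks. Over the 4 tables, with LPS-down peaks only as far as that table goes, 92 genes had 1 exon peak, 61 had 2, 41 had 3 and 45 had more. Within a table, the number of peaks per gene was 1.38, 1.27, 1.56 and 1.11 for Zfp genes (LPS vs Veh up, LPS vs Veh down, Mel+LPS vs LPS up, Mel+LPS vs LPS down), and 1.31, 1.29, 1.49 and 1.14 for other genes. Of the Zfp genes listed in Mel+LPS vs LPS, 0 of 80 had 3 or more peaks down and 13 of 131 had 3 or more up, and of other genes 42 of 2074 and 490 of 4568 did.

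Zfp638 had the most peaks, with 16 in exons 2 to 24 of 28. Its product binds RNA and is known to silence unintegrated retroviral DNA. Its peaks in LPS vs Veh were 5 up and 3 down and those in Mel+LPS vs LPS 6 up and 2 down, with scores from 1.20 to 9.77. The centres of its highest peaks, 9.77 and 6.19, lay off the exons of the gene model. The Zfp638 peaks centred on those exons had scores up to 3.76. Zfp469 had 10 peaks, all in exon 5 of 5, 4 up (2.20 to 6.19) and 2 down (2.99 and 7.84) in LPS vs Veh, and 3 up (1.35 to 8.01) and 1 down (1.64) in Mel+LPS vs LPS. Its human counterpart is known for the structure of the cornea. Zfp106, which encodes an RNA-binding protein needed by motor neurons, had 8 peaks in exons 4 to 11 of 22, of which the 6 in Mel+LPS vs LPS were all up (1.43 to 4.76) and the 2 in LPS vs Veh were both down (1.06 and 1.37). The centres of the Zfp106 peaks with 4.76, 2.62 and 1.06 lay off the exons of the gene model. Zfp407, Zfp445, Zfp646 and Zfp770 had 7 each. Zfp37, Zfp383, Zfp469, Zfp617, Zfp638 and Zfp770 had peaks in all 4 tables, which could be seen only where the LPS-down table reaches.

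Some genes held up and down peaks in the same comparison. In LPS vs Veh on chromosomes 1 to 9, 27 of 120 Zfp genes (22.5%, 16.0% to 30.8%) had both, against 326 of 3024 other genes (10.8%). In Mel+LPS vs LPS, 31 of 180 (17.2%, 12.4% to 23.4%) had both, against 577 of 6065 (9.51%). In exon 6 of Zfp658, the up peak of 16.0 was 266 bases from a down peak of 6.21. In exon 4 of 4 of Zfp267, an up peak of 4.26 was 69 bases from a down peak of 5.95. In exon 5 of 5 of Zfp51, a peak of 5.06 up and a peak of 7.61 down in Mel+LPS vs LPS were 102 bases apart. These sites carried opposite directions within 1 exon.

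Sites of Zfp genes were also listed in both comparisons, a site being 2 peaks of 1 gene that overlap by at least 1 base. Both use the LPS libraries, so the scores are given side by side only. In exon 4 of Zfp617, the score was 8.64 for the down peak of LPS vs Veh and 8.64 for the up peak of Mel+LPS vs LPS, with 179 shared bases. The site in exon 10 of Zfp568 was down with 8.76 and up with 5.85. Ranked by the lower of the 2 scores, the next sites of this kind were in Zfp74 (3.76 and 6.13), Zfp189 (3.43 and 5.61), Zfp462 (3.40 and 6.35) and Zfp383 (2.68 and 3.32). In the opposite order (LPS vs Veh up, Mel+LPS vs LPS down), the first sites by the same ranking were in Zfp229 (8.87 and 5.07), Zfp619 (4.99 and 5.18), Zfp977 (4.90 and 5.30), Zfp975 (9.56 and 4.36), Zfp11 (7.21 and 4.21) and Zfp677 (10.95 and 3.93). Both peaks of the Zfp617 site have a near-identical copy in 1 other gene. The peaks of Zfp975 and Zfp977 have near-identical copies in other genes in at least 1 of the comparisons. Sites up in both comparisons were in Zfp12, Zfp62, Zfp445, Zfp638, Zfp646 and Zfp760, with scores from 1.15 to 2.22. Their peaks shared between 8 bases (Zfp760) and 217 bases (Zfp12), so some only touched at an edge. Zfp677 also had a peak up in Mel+LPS vs LPS (5.17), 116 bases away in the same exon. The site of Zfp383 listed as down in LPS vs Veh was in exon 4 of 5, with its centres off the exons of the gene model. The same gene had a site of the other order in exon 5, with 2.91 up and 2.74 down.

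Of short lists of Zfp genes with a known role, the members with an exon peak are given below, and beside these counts stands the share over all Zfp genes of RefSeq, 64.9% in any table. Zfp207, Zfp263, Zfp407, Zfp503 and Zfp521 lie on chromosomes for which the LPS-down table is missing, so only their up peaks could be listed in LPS vs Veh. The 3 of 6 listed genes of imprinting and retroelement repression with an exon peak were Zfp445, Zfp568 and Zfp932. Zfp445, which protects imprints together with Zfp57, had 3 peaks up in LPS vs Veh (1.41 to 1.95) and 4 up in Mel+LPS vs LPS (1.03 to 4.18), and none down. Zfp932, a repressor of retroelements, had 1 peak up in LPS vs Veh (1.15), while its 2 peaks in Mel+LPS vs LPS were down (1.47 and 2.53). All of the Zfp932 peaks have a near-identical copy in 1 other gene, so the gene their reads came from is uncertain. Zfp57, Zfp809 and Zfp708 had no exon peak of a differential table.

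Zfp217, whose product is known to bind METTL3, had 3 exon peaks up in LPS vs Veh, with 1.18, 1.71 and 1.96, and 1 up in Mel+LPS vs LPS with 1.21. These were in exons 2 and 4 of 6 and had low scores. Of the genes of pluripotency, Zfp281 was listed with 1 peak up in LPS vs Veh (1.60) and, with 1.23 to 1.55, 3 peaks up in the other comparison, all in exon 2 of 2. Zfp42 and Zfp296 were not listed.

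Of 10 genes of mesenchymal and neural development, 7 had an exon peak, 28 peaks in all, of which 7 were in the last exon. On chromosomes 1 to 9, LPS vs Veh gave 4 up and 3 down, and over all chromosomes Mel+LPS vs LPS gave 15 up and 3 down. Zfp423, a regulator of preadipocyte commitment, had 1 up peak in LPS vs Veh (2.31) and 1 down peak in Mel+LPS vs LPS (3.81) that share 175 bases. Its paralog Zfp521 had 1 up peak in each comparison (2.24 and 1.96). Zfp407 had 1 peak up in LPS vs Veh (2.87), and its peaks in Mel+LPS vs LPS were 4 up in exon 2 of 9 (1.87 to 8.31) and 2 down (1.14 and 1.58). Zfp292 had 4.58 up in LPS vs Veh and 5.54 and 1.27 up in Mel+LPS vs LPS, and Zfp503 had 1.71 and 1.30, both up.

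Among genes of general transcription, Zfp143, which binds promoters, was down in LPS vs Veh in exons 7 and 10 of 16 (3.63 and 1.33) and up in Mel+LPS vs LPS in exon 10 (2.77). The centres of these Zfp143 peaks all lay off the exons of the gene model. Zfp263 had 1 peak (1.94, up in LPS vs Veh). Zfp148, Zfp384 and Zfp410 had none. All 3 genes of the spindle and RNA processing list had peaks. Zfp207, which loads a checkpoint protein onto the spindle, had 3 up in LPS vs Veh (1.28 to 3.34) and 2 down in Mel+LPS vs LPS (1.37 and 2.35). Zfp326, a part of a complex that couples elongation to splicing, had 1 down in each (2.34 and 1.32). All Zfp207 centres and the Zfp326 centre with 2.34 lay off the exons of the gene model. Zfp36, which encodes the mRNA decay factor tristetraprolin, had no exon peak. Zfp91, Zfp598 and Zfp622, the list of signalling and ubiquitin genes, had none either.

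DRACH was about as dense in the exon peaks of Zfp genes as in those of other genes, and GGAC, the core of its most methylated forms, was less dense. Of 496 peaks on coding sequence, 489 (98.6%) held DRACH on the transcript strand, as did 97.0% of 5918 peaks of other genes. The density was 23.9 motifs per 1000 bases in the peaks and 21.8 in the exons that hold them, and for other genes 24.6 and 22.0. GGAC occurred 2.84 times per 1000 bases in peaks of Zfp genes and 2.59 in their exons, and 6.06 and 5.00 in other genes. By table, the GGAC density in peaks of Zfp genes was between 2.42 and 3.48, and in peaks of other genes between 5.53 and 6.31.

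The most frequent DRACH form in peaks of Zfp genes was AAACC, with 396 of 2258 motifs (17.5%), where it made up 5.56% of 27122 motifs in other genes. Of these 396, 228 (57.6%) lay in linkers. The linkers are short, with 11479 bases of the peaks, and held 27.3 DRACH motifs per 1000 bases, where fingers held 19.6 and other coding sequence 27.0. Of 1247 linkers of the usual form in these genes, 686 (55.0%) held AAACC. The motifs at the linkers can be seen in the Zfp617 sequence above. A motif is a description of the sequence and not a site of methylation.

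**Figure D4:**
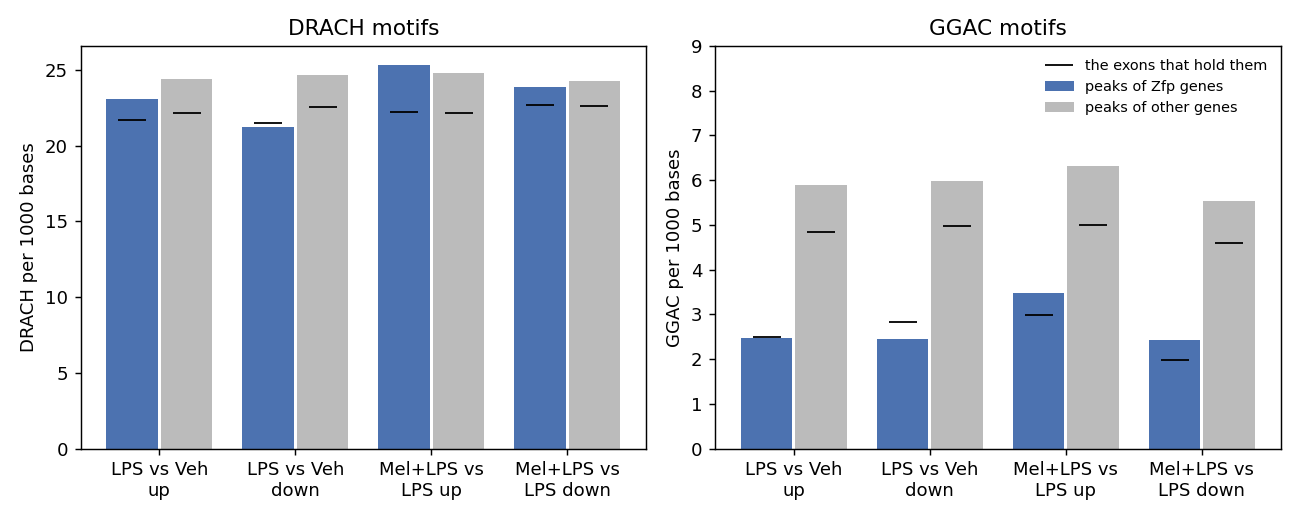
DRACH (left) and GGAC (right) motifs per 1000 bases of exon peaks in each table, for Zfp genes and other genes, with black lines for the exons that hold the peaks. DRACH bars of Zfp genes stand between 21.2 and 25.3. GGAC bars of Zfp genes, at 2.42 to 3.48, stand below those of other genes, at 5.53 to 6.31.

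The clusters of Zfp genes were visible in the peaks. Chromosome 7 held 140 of the 568 peaks, in 60 of its 90 annotated Zfp genes. Over all chromosomes, 238 of 367 Zfp genes (64.9%) had an exon peak, so the count on chromosome 7 went with its number of genes. Of all exon peaks on that chromosome, 11.1% were in Zfp genes. By table, the share there was 16.5% (LPS vs Veh up), 8.64% (LPS vs Veh down), 8.82% (Mel+LPS vs LPS up) and 11.7% (Mel+LPS vs LPS down). Chromosome 17 held 65 peaks in 29 of 41 genes, chromosome 8 held 48 in 18 of 25, and chromosome 13 held 34 in 19 of 32. The counts of chromosomes 13 and 17 lack LPS-down peaks, because that table does not reach them. Those of chromosomes 7 and 8 include 26 and 12. Genes in such clusters resemble each other. Of 493 peaks with at least 100 bases of transcript sequence, 58 (11.8%, 9.21% to 14.9%) matched another gene over at least 100 bases at 95% identity or more, against 6.79% of the exon peaks of other genes. The share was 20.5% (16 of 78) among peaks down in Mel+LPS vs LPS. Which copy the reads came from is uncertain for these peaks. The assigned gene column of the tables also named another gene than the annotated transcript for many members, and the 2 were the same for 362 of 568 (63.7%) and for 62.4% of the exon peaks of other genes.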

How the data were processed

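Uterine RNA of 3 treatments was fragmented, immunoprecipitated with an m6A antibody and sequenced. Reads were trimmed (Fastp) and aligned by the authors to mm10 (GRCm38) with STAR 2.5.2a, peaks were called with exomePeak2, the comparison of treatments used MACS2, and the annotation came from ChIPseeker 1.22.1. The deposited value is a score, the log10 likelihood ratio of 1 comparison. It is a value of the authors' comparison and was used since the tables hold no other. Read depth is unknown.

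Members and lists were chosen with earlier results of these data known. Exon numbers and genes were read from the annotation. Placement, fingers (C, 2 to 4 residues, C, 12 residues, H, 3 to 5 residues, H), linkers (at most 10 residues between fingers) and motifs used 1 GENCODE transcript per gene (mouse release 21, GRCm38), motifs on the transcript strand only. Genes reached were counted over RefSeq. Copies were found with blastn 2.17.0 among transcripts. Other protein patterns were TGEKP or TGERP for the usual linker and a strict KRAB pattern. The latter was F, 1 residue, DV, 2 to 4 residues, F, 2 residues, and EEW or EW. Named genes are the 4 with the highest scores per table, the 5 with most peaks, those in all 4 tables, listed members with a peak, and 6 per direction at sites in both comparisons. Zfp12, Zfp62, Zfp267, Zfp646, Zfp760 and the genes named for lacking a model or entry were chosen after their values were seen. The comparison with other finger genes was added after the data were seen. No test was made. Only the finding of fingers, the placement of positions on a transcript and the counting of DRACH were tested on simulated sequences. Python 3.11.15, pandas 2.3.3 and scipy 1.17.1 were used.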

Additional observations from a re-analysis of the deposited data

How the results depend on the processing

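Of 63 alternative values, 43 stayed within the interval of the value given, or within 1.5 times it for counts, and 20 did not. Merging peaks within 100 bases joined none, so its values, which are among the 43, could not differ. The GGAC value has no interval to be held against and was placed among the 20. At a score of at least 3, the tables held 63 (LPS vs Veh up), 23 (LPS vs Veh down), 63 (Mel+LPS vs LPS up) and 27 peaks (Mel+LPS vs LPS down). At a score of at least 6, they held 25, 6, 22 and 6. The share of up peaks in Mel+LPS vs LPS was 78.6% at a score of at least 6 and 62.1% with 1 peak per gene and table. It was 59.5% in genes with the looser KRAB pattern, which also allows Y for the first F and M for V. In LPS vs Veh the share of up peaks stayed between 62.3% and 71.4% under all 8 alternatives. Leaving out chromosome 7 or peaks with near-identical copies gave between 67.2% and 71.6% in both comparisons. These 3 alternatives (KRAB, chromosome, copies) were chosen after seeing the data. The last exon held 100% of the 6 peaks with a score of at least 6 that were down in each comparison, and 55.6% of peaks up in Mel+LPS vs LPS at a score of at least 3. With exon numbers of the gene model it held 86.3% of the LPS-up peaks and, in Mel+LPS vs LPS, 73.5% of those up and 89.7% of those down. The median score up in Mel+LPS vs LPS was 2.31 with 1 peak per gene. The stretch from the first to the last finger held 68.1% of centres, and GGAC in place of DRACH gave 2.84 per 1000 bases. The cause of these changes was not tested, except that a higher minimum leaves fewer peaks, the stretch holds more bases than single fingers and GGAC matches fewer sequences than DRACH. No paired analysis was possible because the tables hold no value per replicate, which also left no replicate to leave out.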
